A study of Mus musculus with 8 samples.

Results

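The collagen chain genes are the genes whose symbol is Col, a type number, the letter a and a chain number, and 43 of the 37979 genes in the deposited table have such a symbol. Their transcripts were measured by bulk RNAseq in 4 libraries of pericytes and 4 libraries of SMCs (smooth muscle cells), sorted from the hindlimb muscles of mice of genotype Ai14+/−;SM22α-Cre+, of both sexes and aged 3–4 months. In these mice Cre recombinase is driven by the SM22α promoter and switches on the red fluorescent protein tdTomato for good, so that tdTomato records past as well as present activity of that promoter. Pericytes were taken as PDGFRβ+tdTomato− cells and SMCs as PDGFRβ+tdTomato+ cells, after a gate against CD31 (endothelial cells), CD45 (blood cells) and dead cells, and each library pooled cells of several sorts. No other treatment was given to either group, and both groups carry both transgenes. The question put to the data was which collagens differ between the pericyte and SMC libraries, and how the chains of a type vary together.

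A collagen molecule is a triple helix of chains with glycine at regular steps, and chains of a type are encoded by separate genes. Fibrillar collagens form the cable-like fibrils that give tissue its tensile strength, with types I and III as the bulk in muscle connective tissue and types V and XI as the regulators of fibril width. Network-forming type IV builds the basement membrane on which endothelial cells and mural cells rest, and types XV and XVIII are proteoglycans attached to that membrane. Type VI forms beaded filaments between basement membrane and fibrils, FACITs (fibril-associated collagens with interrupted triple helices) decorate the surface of fibrils, and the remaining types form hexagonal networks, anchoring fibrils or membrane-spanning chains.

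Values are FPKM, fragment counts scaled by transcript length and by the reads mapped in a library, so that levels of different genes can be set side by side. The number of reads behind a value is unknown. The summed FPKM of a library lay between 690247 and 1190435 in pericytes and between 656405 and 737839 in SMCs, and the highest sum was that of pericyte replicate 2. Differences are SMC minus pericyte, in log2(FPKM + 1), a scale that understates the change of low genes. The test was limma's moderated test over 27414 genes, with a Benjamini-Hochberg q value, and a gene was called higher in a group at a q value below 0.05 and enriched when the log2 difference was also above 2. Values after ± are SDs over the 4 libraries of a group. In bulk libraries, fewer cells of a type and less RNA per cell cannot be told apart.

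The labels were set against lists of cell type markers. Over all 27414 genes tested, 11.2% were higher in SMCs and 10.6% were higher in pericytes by limma. All 8 smooth muscle markers, among them Acta2 and Myh11, had higher means in the SMC libraries, but none passed the test by limma, 3 had an unadjusted p below 0.05, and their summed level was 591 to 1892 FPKM in pericytes and 1775 to 5713 FPKM in SMCs. All 8 pericyte markers had higher means in the SMC libraries, 2 of them passed (Rgs5 and Vtn, limma q = 0.0240 and 0.00212), and Pdgfrb, which encodes the receptor used in the sort, averaged 9.70 FPKM in pericytes and 47.4 FPKM in SMCs (limma q = 0.0973). None of these markers was higher in the pericyte libraries. Of 10 fibroblast markers, 7 were higher in SMCs, among them Pdgfra at 2.60 FPKM on average in pericytes and 40.05 FPKM in SMCs, and 2 were higher in pericytes (Dcn and Gsn, both listed at 0 in every SMC library). Of 10 endothelial markers, 8 were higher in SMCs, with sums of 92.9 to 166 FPKM in pericytes and 435 to 1297 FPKM in SMCs. Of 10 leukocyte markers, 9 were higher in pericytes, with sums of 2104 to 3580 FPKM against 39.3 to 79.6 FPKM. Pecam1, which encodes the gated CD31, averaged 45.5 FPKM in pericytes and 197 FPKM in SMCs (limma q = 0.00873). Ptprc, which encodes the gated CD45, averaged 175 FPKM in pericytes and 8.16 FPKM in SMCs (limma q = 0.0004). The part of all these markers in the collagen results was not tested.

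Promoters and a shared start site are printed first, because they belong to the chains that the results below turn on. Col1a2 and Col3a1 encode the most abundant fibrillar chains whose promoter was in the RefSeq table used, Col8a1 had the smallest q value of all members, and Col4a1 and Col4a2 start back to back. Each promoter is the 250 bases before the RefSeq start site on build GRCm38.p6, read on the gene's strand from 5′ to 3′, and capitals mark matches on either strand to the CCAAT box, to the GC box core GGGCGG or to the TATA box core TATAAA.
Col1a2 (chr6:4505368-4505617, plus strand): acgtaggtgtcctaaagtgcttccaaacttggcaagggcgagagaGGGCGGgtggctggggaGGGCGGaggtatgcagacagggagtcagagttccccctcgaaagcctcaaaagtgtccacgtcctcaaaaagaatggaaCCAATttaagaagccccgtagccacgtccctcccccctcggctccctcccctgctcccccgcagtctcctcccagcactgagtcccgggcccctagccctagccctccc
Col3a1 (chr1:45311288-45311537, plus strand): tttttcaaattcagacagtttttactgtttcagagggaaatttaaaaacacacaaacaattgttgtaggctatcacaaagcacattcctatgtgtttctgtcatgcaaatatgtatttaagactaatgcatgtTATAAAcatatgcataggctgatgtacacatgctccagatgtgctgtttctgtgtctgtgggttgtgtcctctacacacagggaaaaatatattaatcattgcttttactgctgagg
Col8a1 (chr16:57754738-57754987, minus strand): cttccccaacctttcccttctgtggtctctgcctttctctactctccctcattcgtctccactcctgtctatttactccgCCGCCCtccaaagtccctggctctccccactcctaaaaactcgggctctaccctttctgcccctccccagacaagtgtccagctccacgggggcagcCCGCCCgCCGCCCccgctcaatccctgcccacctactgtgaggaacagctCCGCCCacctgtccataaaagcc
Col4a1 and Col4a2 (chr8:11312805-11312826, plus strand, the bases in the first exon of both genes): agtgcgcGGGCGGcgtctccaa

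The Col1a2 window held 1 CCAAT and 2 GGGCGG matches, the Col3a1 window held 1 TATAAA match, and the Col8a1 window held 4 GGGCGG matches. The G and C content was 62.0% for Col1a2, 35.2% for Col3a1 and 60.8% for Col8a1. RefSeq windows were found for 35 of the 43 members (38 windows, since some genes have several start sites). GGGCGG was in 22 of the 38 member windows (57.9%) and in 32.7% of all 32851 windows of that length. CCAAT was in 13 member windows (34.2%, against 33.8% of all windows), and TATAAA was in 5 (13.2%, against 12.4%). Of the members higher in SMCs, 14 had a RefSeq window, and among their 15 windows 10 held GGGCGG, 4 held CCAAT and 3 held TATAAA. A match is only a run of letters and no measure of binding.

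Collagen transcripts were more abundant in SMCs. The summed FPKM of the 43 genes was 674, 326, 675 and 567 in pericyte replicates 1 to 4 and 2615, 2660, 6354 and 6467 in SMC replicates 1 to 4. Every SMC library lay above every pericyte library, and SMC replicates 3 and 4 lay more than 2 times above SMC replicates 1 and 2. Collagens made up 0.0729% ± 0.0323 (SD, n = 4) of all FPKM in the pericyte libraries and 0.648% ± 0.311 (SD, n = 4) in the SMC libraries. All 43 genes had a value above 0 in at least 1 library and were tested.

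Of the 43 collagens, 20 were higher in SMCs by limma, where 11.2% of all genes tested were. Of those, 17 were SMC-enriched, where 2.66% of all genes were. No collagen was higher in pericytes at that threshold, where 10.6% of all genes were, and none was pericyte-enriched, where 3.24% of all genes were. At an unadjusted limma p below 0.05, 27 collagens had higher values in SMCs, where 16.2% of all genes did, and 2 (Col9a1 and Col9a3) had higher values in pericytes, where 15.6% did. The groups did not overlap for 27 members, 24 with every SMC library on top (12.5% of all genes tested) and 3 with every pericyte library on top (12.1% of all genes tested). The median log2 difference over the 43 members was 1.91, beside -0.02 over all genes tested. A mean under 1 FPKM in both groups was found for 7 members.

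**Figure D1:**
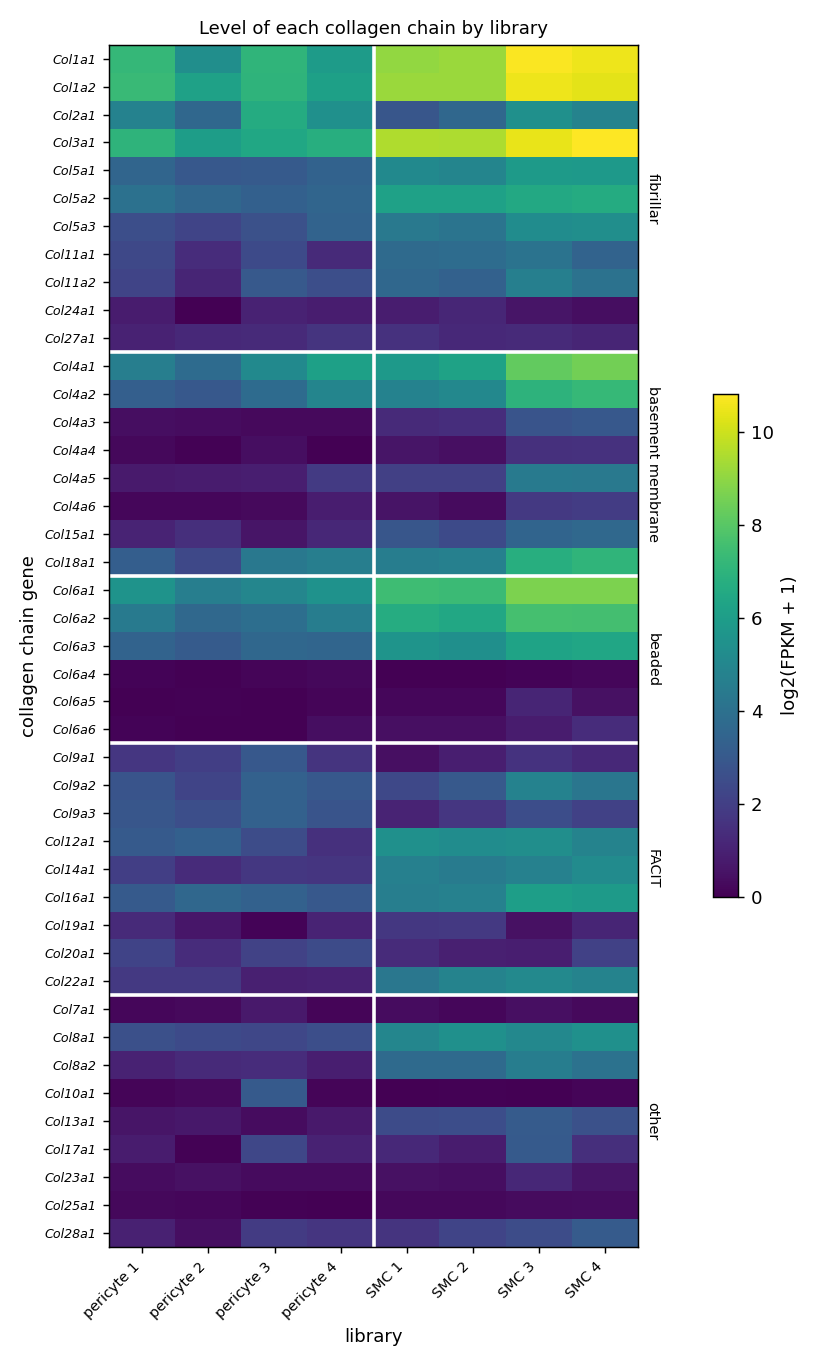
Level of each of the 43 collagen chain genes, as log2(FPKM + 1) in colour, in 4 pericyte and 4 SMC libraries, ordered by class. The rows of types I, III and V, of Col6a1 to Col6a3 and of Col8a1 are brighter in every SMC column than in any pericyte column, Col2a1 is not, and within SMCs replicates 3 and 4 are brighter than replicates 1 and 2 in most rows.

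**Figure D2:**
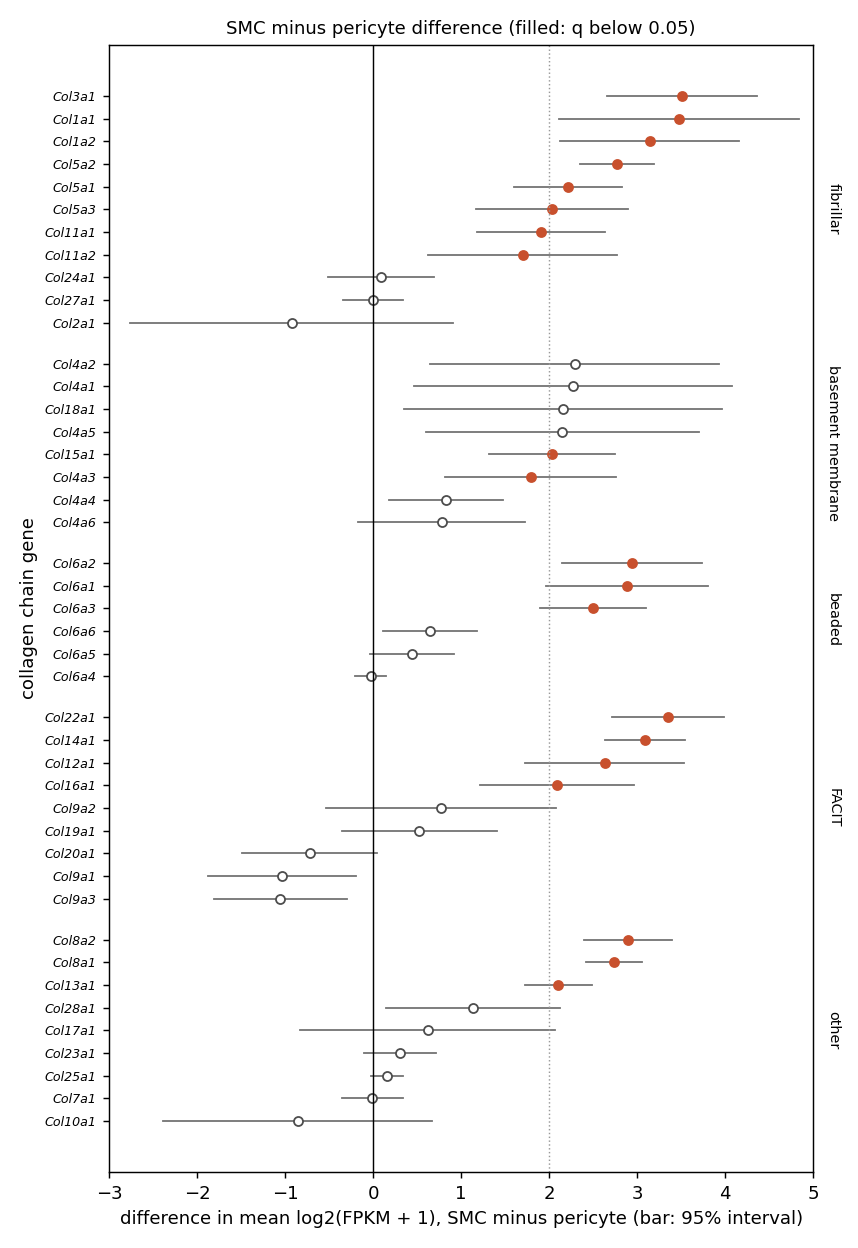
Difference in mean log2(FPKM + 1), SMC minus pericyte, for each collagen, with 95% intervals from limma, 4 libraries per group. Filled points have a q value below 0.05 and the dotted line marks a difference of 2. The 20 filled points lie to the right of 0, and the intervals of Col4a1, Col4a2, Col4a5 and Col18a1 are wide.

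Among the 11 fibrillar genes, 8 were higher in SMCs and 6 of these were SMC-enriched, whereas Col2a1, Col24a1 and Col27a1 did not pass. Col3a1, the single chain of type III collagen, is at bases 45368383 to 45406551 of chromosome 1 (NCBI Build 37, plus strand). It had 130, 63.1, 85.1 and 108 FPKM in pericyte replicates 1 to 4 and 742, 718, 1382 and 1794 FPKM in SMC replicates 1 to 4. The groups did not overlap, the log2 difference was 3.51 (standard error 0.36, limma q = 0.000622), and the ratio of the means was 12.02. Col1a1, the alpha 1 chain of type I collagen, had 147, 39.3, 135 and 60.0 FPKM in pericytes and 525, 580, 1702 and 1478 FPKM in SMCs. Its log2 difference was 3.48 (standard error 0.58, limma q = 0.00502). Col1a2, the alpha 2 chain of the same molecule, is at bases 4454814 to 4491543 of chromosome 6 (NCBI Build 37, plus strand). It had 161, 71.5, 128 and 69.3 FPKM in pericytes and 578, 582, 1468 and 1314 FPKM in SMCs, a log2 difference of 3.15 (standard error 0.43, limma q = 0.00216). For both chains of type I, pericyte replicates 1 and 3 were the highest of their group and SMC replicates 3 and 4 the highest of theirs.

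The 3 chains of type V collagen, which nucleates type I fibrils, were all SMC-enriched. Col5a2 had 15.2, 11.3, 8.86 and 10.6 FPKM in pericytes and 72.5, 71.0, 90.2 and 101 FPKM in SMCs. Its spread was small in both groups, and its log2 difference was 2.77 (standard error 0.18, limma q = 8.40e-05). Col5a1 averaged 8.58 ± 1.72 FPKM in pericytes against 44.9 ± 15.3 FPKM in SMCs (limma q = 0.00108), and Col5a3 averaged 6.06 ± 2.71 FPKM against 28.3 ± 11.9 FPKM (limma q = 0.00720). Col5a3 stayed higher in SMCs under every alternative, but its log2 difference of 2.03 was near the enrichment threshold. It fell below 2 without pericyte replicate 1 (1.98) or 2 (1.86), or SMC replicate 3 (1.86) or 4 (1.84). The type XI chains, which have the corresponding place in cartilage fibrils, were higher in SMCs below the fold threshold. Col11a1 averaged 2.87 ± 1.58 FPKM in pericytes and 12.8 ± 2.66 FPKM in SMCs, with a log2 difference of 1.91 (limma q = 0.00438). Col11a2 had 3.64, 1.18, 7.21 and 5.02 FPKM in pericytes and 11.3, 9.34, 24.6 and 16.04 FPKM in SMCs, with a log2 difference of 1.70 (limma q = 0.0360). The Col11a2 call was lost without pericyte replicate 1 or 4, or SMC replicate 1, 3 or 4, with limma q values up to 0.0865, and when genes at 0 in every library were kept in the test (limma q = 0.0787). Col24a1 stayed at or below 1.21 FPKM in every library and Col27a1 at or below 2.11 FPKM, and the 95% interval of the Col27a1 difference was -0.34 to 0.34.

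Col2a1, the chain of the type II collagen of cartilage, was the most abundant of the 3 fibrillar genes that did not pass. It had 26.5, 11.3, 100 and 41.7 FPKM in pericyte replicates 1 to 4 and 6.38, 11.3, 42.1 and 27.5 FPKM in SMC replicates 1 to 4. The groups overlapped, and replicate 3 was the highest library in each of them. The log2 difference was -0.93 (95% interval -2.76 to 0.91, limma q = 0.515). It was -0.41 without pericyte replicate 3, -0.49 without SMC replicate 1 and -1.43 without pericyte replicate 2. It made up 3.92%, 3.46%, 14.8% and 7.36% of the summed collagen FPKM in pericytes and 0.244%, 0.425%, 0.663% and 0.425% in SMCs, so that this share was higher in every pericyte library than in any SMC library.

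Type IX collagen, a FACIT that coats type II fibrils in cartilage, is built from the chains of Col9a1, Col9a2 and Col9a3. Col9a1 had 2.32, 3.06, 6.81 and 2.05 FPKM in pericytes and 0.374, 0.866, 1.96 and 1.39 FPKM in SMCs. Col9a3 had 6.52, 5.04, 9.20 and 6.03 FPKM in pericytes and 1.13, 2.23, 4.92 and 3.24 FPKM in SMCs. For both genes the lowest pericyte value exceeded the highest SMC value, with log2 differences of -1.04 (limma q = 0.0849) and -1.06 (limma q = 0.0560) that missed the threshold. Both passed when only genes with 1 FPKM or more in 4 libraries were tested (limma q = 0.0345 and 0.0229), and Col9a3 also passed without SMC replicate 3 (limma q = 0.0242). With replicate number as a block in the fit, both passed too (limma q = 0.0324 and 0.0375). Col9a2 had the opposite sign and did not pass, at 5.93, 3.67, 9.35 and 6.81 FPKM in pericytes and 4.10, 7.08, 26.9 and 18.04 FPKM in SMCs (limma q = 0.433). The ratio of Col9a2 to Col9a3 was 0.909, 0.729, 1.02 and 1.13 in pericytes and 3.62, 3.18, 5.46 and 5.57 in SMCs. This ratio was thus higher in every SMC library than in any pericyte library.

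Col10a1, the chain of hypertrophic cartilage, had 7.25 FPKM in pericyte replicate 3 and at most 0.225 FPKM in any other library. Pericyte replicate 3 was also the highest of the 8 libraries for Col2a1, Col9a1 and Col9a3. In the list of tendon and cartilage markers, Acan had 2.08 FPKM in pericyte replicate 3 and at most 0.773 FPKM elsewhere, whereas Sox9 was highest in SMC replicate 3, at 55.8 FPKM. Matn3 had 1.77 to 7.58 FPKM in pericytes and 2.30 to 11.1 FPKM in SMCs. Of the 8 genes of that list 4 were higher in SMCs (Tnmd, Mkx, Comp and Fmod), all of them SMC-enriched, where 11.2% of all genes tested were higher. Acan, Sox9, Matn3 and Scx did not pass. The sum of the list was 172 to 545 FPKM in pericytes and 1953 to 3102 FPKM in SMCs. Most of that sum came from Fmod and Tnmd, at 1443 and 848 FPKM on average in SMCs. The part of that list in the Col2a1, Col9a1, Col9a2, Col9a3 and Col10a1 values was not tested.

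**Figure D3:**
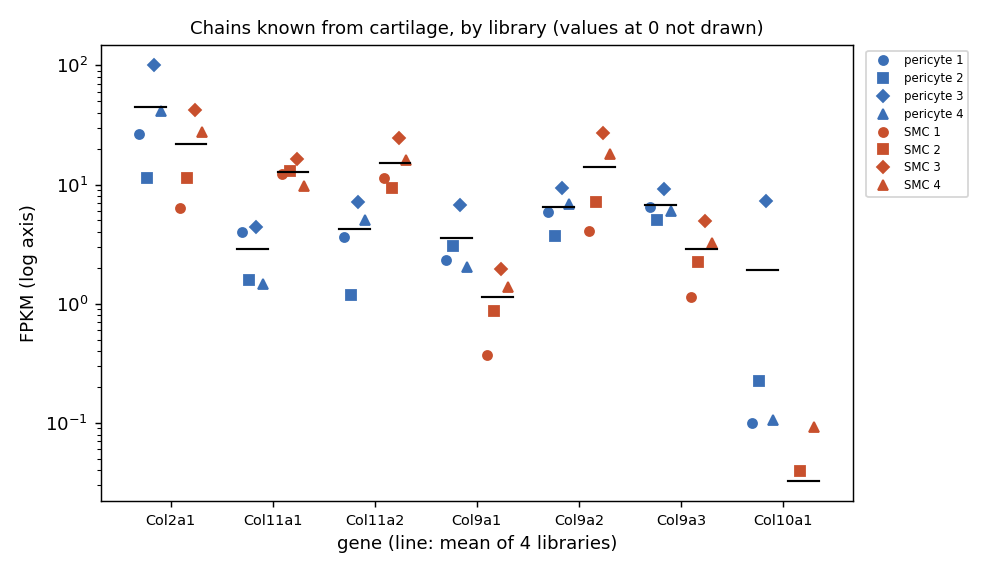
FPKM on a log axis of 7 chains known from cartilage in each of 4 pericyte and 4 SMC libraries, with the group mean as a line. Pericyte replicate 3 is the highest pericyte library for every chain, Col11a1 and Col11a2 are higher in SMCs, and the Col10a1 mean in pericytes rests on the 7.25 FPKM of that library.

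Among the other FACITs, 4 were SMC-enriched, and all 4 kept the groups apart. Col22a1, known from tissue junctions such as the muscle to tendon junction, had 2.52, 2.50, 0.942 and 1.03 FPKM in pericytes and 18.3, 27.3, 32.8 and 27.6 FPKM in SMCs. Its log2 difference was 3.35 (standard error 0.27, limma q = 0.000213), and its ratio of means was 15.2. Col14a1, a FACIT of tendon and fascia, had 3.05, 1.55, 2.40 and 2.18 FPKM in pericytes and 25.1, 21.5, 25.8 and 36.4 FPKM in SMCs, a log2 difference of 3.09 (standard error 0.19, limma q = 6.94e-05). Col12a1, which binds type I fibrils, had 7.36, 8.86, 4.65 and 1.83 FPKM in pericytes and 41.9, 37.8, 39.5 and 27.9 FPKM in SMCs, a log2 difference of 2.63 (limma q = 0.00282). Replicate 4 was the lowest library of each group for Col12a1. Col16a1 averaged 8.60 ± 1.93 FPKM in pericytes against 43.6 ± 22.1 FPKM in SMCs (limma q = 0.00668). Its log2 difference of 2.09 fell below 2 without pericyte replicate 4 (1.9998), SMC replicate 3 (1.84) or SMC replicate 4 (1.90). Col16a1 was then higher in SMCs but not enriched. Col19a1 and Col20a1 had group means of at most 3.27 FPKM, their groups overlapped, and neither passed (limma q = 0.425 and 0.184).

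Type VI collagen is assembled from the chains of Col6a1, Col6a2 and another chain, most often that of Col6a3, and faults in these genes cause muscular dystrophy in humans. All 3 genes were SMC-enriched. Col6a1 (chromosome 10 of NCBI Build 37, 76171537 to 76188913, minus strand) had 46.5, 23.3, 30.6 and 43.9 FPKM in pericytes and 173, 166, 409 and 409 FPKM in SMCs, a log2 difference of 2.89 (standard error 0.39, limma q = 0.00208). Its neighbour Col6a2 (76058507 to 76086375, minus strand) had 20.7, 11.7, 14.02 and 23.2 FPKM in pericytes and 102, 88.3, 193 and 192 FPKM in SMCs, a log2 difference of 2.94 (standard error 0.34, limma q = 0.000995). Col6a3 had 9.73, 7.501, 11.2 and 10.6 FPKM in pericytes and 47.2, 40.9, 76.4 and 84.3 FPKM in SMCs, a log2 difference of 2.50 (standard error 0.26, limma q = 0.000582). Pericyte replicate 2 was the lowest library for each of the 3 genes. The alternatives to Col6a3 were low. Col6a4 stayed at or below 0.182 FPKM in every library, Col6a5 had 0.0417 ± 0.0524 FPKM in pericytes and 0.465 ± 0.483 FPKM in SMCs, and Col6a6 had 0.102 ± 0.145 FPKM and 0.779 ± 0.599 FPKM, with limma q values of 0.193 for Col6a5 and 0.0905 for Col6a6.

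In the basement membrane class, 2 of 8 genes were higher in SMCs, Col15a1 and Col4a3, and 6 did not pass although all 8 differences were positive. Col4a1 and Col4a2 encode the common chains of type IV collagen, which is found in every basement membrane. Col4a1 had 23.9, 12.6, 34.4 and 70.7 FPKM in pericyte replicates 1 to 4 and 56.7, 73.5, 298 and 363 FPKM in SMC replicates 1 to 4. Col4a2 had 8.60, 6.86, 12.8 and 29.0 FPKM in pericytes and 26.4, 32.5, 126 and 152 FPKM in SMCs. For both genes pericyte replicate 4 reached into the range of SMC replicates 1 and 2, and SMC replicates 3 and 4 stood well above all other libraries. The log2 difference was 2.27 for Col4a1 (95% interval 0.46 to 4.08, limma q = 0.0807) and 2.29 for Col4a2 (95% interval 0.64 to 3.93, limma q = 0.0575). Col18a1, the source of endostatin, had 8.27, 4.06, 19.1 and 23.3 FPKM in pericytes and 22.8, 25.1, 107 and 134 FPKM in SMCs, with a log2 difference of 2.16 (95% interval 0.35 to 3.96, limma q = 0.0946). Its groups overlapped only by pericyte replicate 4 against SMC replicate 1.

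Col15a1, the relative of Col18a1 that links basement membranes to the fibrils around them, was SMC-enriched. It had 1.09, 1.71, 0.533 and 1.29 FPKM in pericytes and 6.49, 4.34, 10.2 and 11.6 FPKM in SMCs, a log2 difference of 2.04 (standard error 0.31, limma q = 0.00312). The enriched call of Col15a1 was lost without pericyte replicate 3 (1.88), SMC replicate 3 (1.91) or SMC replicate 4 (1.86). It stayed higher in SMCs under every alternative. The minor type IV chains were low in pericytes. Col4a5 had 0.712, 0.752, 0.873 and 2.60 FPKM there and 3.16, 3.18, 21.1 and 19.5 FPKM in SMCs, without overlap (log2 difference 2.15, limma q = 0.0584). Col4a3 had 0.261 ± 0.0538 FPKM in pericytes and 1.41, 1.69, 6.08 and 6.88 FPKM in SMCs, a log2 difference of 1.79 (limma q = 0.0201). Col4a4 had 0.146 ± 0.134 FPKM in pericytes and 1.15 ± 0.813 FPKM in SMCs (limma q = 0.0756), and Col4a6 had 0.331 ± 0.338 FPKM and 1.51 ± 1.32 FPKM (limma q = 0.255).

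Whether the type IV chains passed the test depended on the processing and on single libraries. When only the 13349 genes with 1 FPKM or more in 4 libraries were tested, Col4a1, Col4a2, Col4a5 and Col18a1 passed and the class had 6 genes higher in SMCs. Of those 13349 genes, 3040 were higher in SMCs. Such a filter can let in a gene through the group where it is high. Col4a3, at most 0.318 FPKM in pericytes, entered only through its SMC libraries, and Col4a5 reached 1 FPKM in pericytes only in replicate 4. The class had 5 genes higher in SMCs with a pseudocount of 0.1, 4 with quantile scaling and 4 with an intensity trend. Col4a2 and Col4a5 passed in each of these 3 settings. It had 1 without pericyte replicate 3, when Col4a3 no longer passed (limma q = 0.0527), 3 without pericyte replicate 4, and 4 without SMC replicate 1 or 2. The endothelial marker sum was 111, 92.9, 98.9 and 166 FPKM in pericyte replicates 1 to 4 and 435, 528, 1152 and 1297 FPKM in SMC replicates 1 to 4, the same order of libraries within SMCs as for Col4a1, Col4a2 and Col18a1. The smooth muscle marker sum in SMCs was 1775, 2044, 3427 and 5713 FPKM, also in that order, and none of the markers of either list was at 0 in a whole group. In SMC replicates 1 to 4 the pericyte marker sum was 154, 148, 309 and 416 FPKM. The fibroblast marker sum had another order there, at 4909, 3945, 2794 and 3692 FPKM. The part of these marker lists in the type IV, XV and XVIII values was not tested.

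**Figure D4:**
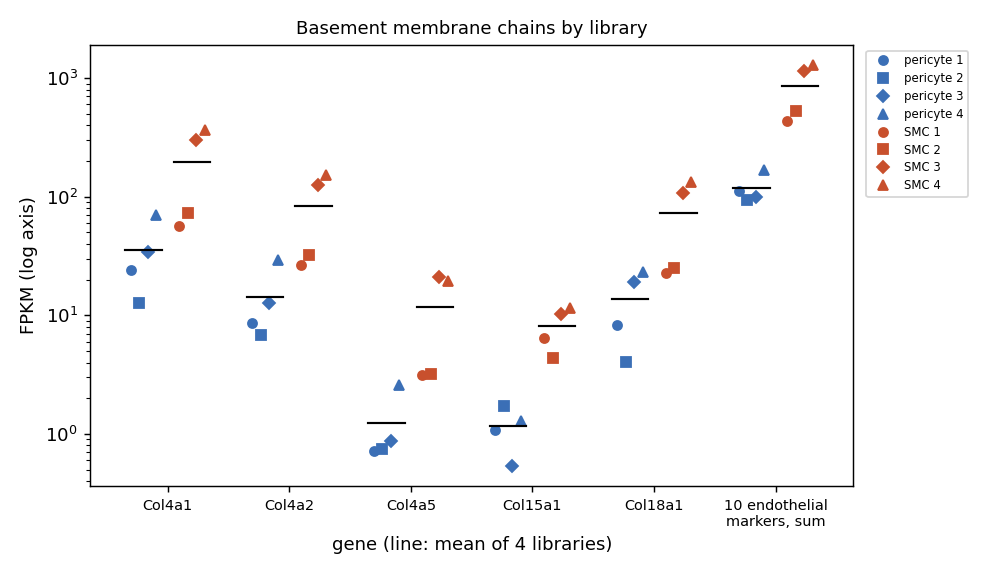
FPKM on a log axis of 5 basement membrane chains, and the summed FPKM of 10 endothelial markers, in each of 4 pericyte and 4 SMC libraries, with the group mean as a line. SMC replicates 3 and 4 lie above SMC replicates 1 and 2 in every column, and for Col4a1 and Col4a2 pericyte replicate 4 is level with SMC replicates 1 and 2.

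Type IV genes lie in pairs that are read in opposite directions. In GENCODE version 1 on NCBI Build 37, Col4a1 (chromosome 8, 11198423 to 11312826, minus strand) and Col4a2 (11312805 to 11449287, plus strand) share 22 bases of their first exons, and the RefSeq start sites on GRCm38.p6 share the 22 bases printed above. The start site of Col4a3 lies 72 bases from that of Col4a4 on chromosome 1, and that of Col4a5 lies 1309 bases from that of Col4a6 on chromosome X. The ratio of Col4a1 to Col4a2 was 2.78, 1.83, 2.69 and 2.43 in pericytes and 2.15, 2.26, 2.37 and 2.39 in SMCs. It thus spanned a narrow range while the level of Col4a1 differed by 6.395 times between the lowest and the highest SMC library and by 5.615 times among pericyte libraries. The ratio of Col4a5 to Col4a6 was 5.52, 5.48, 3.90 and 3.11 in pericytes and 6.39, 12.5, 8.46 and 6.97 in SMCs, higher in every SMC library. Col4a3 to Col4a4 had ratios from 0.642 to 8.44 in pericytes, where both genes were at most 0.321 FPKM in every library.

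Ratios between the chains of other types were described in the same way. A type I molecule holds a pair of Col1a1 chains and a single Col1a2 chain. The FPKM ratio of Col1a1 to Col1a2 was 0.916, 0.549, 1.06 and 0.866 in pericytes and 0.907, 0.995, 1.16 and 1.12 in SMCs. The ranges overlapped, and pericyte replicate 2 was the lowest. Col6a1 stood at 1.89 to 2.25 times Col6a2 in pericytes and 1.70 to 2.12 times in SMCs, again with overlap. Col5a2 to Col5a1 was 1.12 to 1.62 in pericytes and 1.53 to 2.44 in SMCs. Col3a1 to Col1a1 was 0.629 to 1.80 in pericytes and 0.812 to 1.41 in SMCs. Of the 13 ratios computed, those of Col4a5 to Col4a6, Col9a2 to Col9a3 and Col1a1 to Col2a1 did not overlap between groups. Col1a1 to Col2a1 was 1.35 to 5.57 in pericytes and 40.4 to 82.3 in SMCs.

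Among the remaining collagens, 3 of 9 were higher in SMCs, all SMC-enriched. Col8a1, a chain of the hexagonal network collagen of vessel walls, is at bases 57624371 to 57754850 of chromosome 16 (NCBI Build 37, minus strand). It had 5.17, 4.41, 3.96 and 4.97 FPKM in pericytes and 30.2, 42.1, 32.4 and 41.9 FPKM in SMCs. Both groups were tight, and its log2 difference of 2.73 (standard error 0.14) had the smallest q value of all 43 members (limma q = 2.96e-05). Col8a2, its partner chain, had 1.05, 1.44, 1.59 and 0.861 FPKM in pericytes and 12.5, 12.5, 23.2 and 15.8 FPKM in SMCs, a log2 difference of 2.89 (standard error 0.21, limma q = 0.000134). Col13a1, a membrane-spanning collagen known from the neuromuscular junction, had 0.526 ± 0.187 FPKM in pericytes and 5.63 ± 1.43 FPKM in SMCs, a log2 difference of 2.10 (limma q = 0.000177). Without SMC replicate 3 the Col13a1 difference was 1.97, below the enrichment threshold. Unlike the type I and IV chains, Col8a1 showed no step between SMC replicates 1 and 2 and SMC replicates 3 and 4. Col28a1, known from nerve, had 1.54 ± 1.10 FPKM in pericytes and 4.52 ± 2.32 FPKM in SMCs (limma q = 0.106). Col17a1, a chain of epithelial hemidesmosomes, reached 3.90 FPKM in pericyte replicate 3 and 7.44 FPKM in SMC replicate 3 and was at most 1.78 FPKM elsewhere. Col7a1, Col23a1 and Col25a1 had group means of at most 0.6405 FPKM and did not pass.

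The spread within SMCs differed between members. Of the 33 collagens with a mean of at least 1 FPKM, 27 had both SMC replicate 3 and SMC replicate 4 above SMC replicates 1 and 2 (81.8%), where 31.2% of the 13612 genes at that level did. In pericytes 12 of the 33 had that order (36.4%, against 24.5% of genes). This order was looked for after the values had been seen. The ratio of the highest to the lowest SMC library was 6.395 for Col4a1, 5.88 for Col18a1, 3.24 for Col1a1 and 2.50 for Col3a1, but 1.39 for Col8a1, 1.42 for Col5a2, 1.503 for Col12a1 and 1.69 for Col14a1.

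Class sums were set side by side as a description. Fibrillar genes summed to 211 to 505 FPKM in pericytes and 2004 to 4837 FPKM in SMCs, beaded genes to 42.6 to 78.3 FPKM and 296 to 688 FPKM, and FACITs to 32.4 to 46.0 FPKM and 118 to 199 FPKM. These sums did not overlap, whereas basement membrane genes summed to 26.5 to 128 FPKM in pericytes and 118 to 691 FPKM in SMCs, with overlap. As shares of all collagen FPKM, fibrillar genes made up 56.1% to 74.9% in pericytes and 74.8% to 76.6% in SMCs, and basement membrane genes made up 6.41% to 22.6% and 4.52% to 10.7%. The FACIT share was 5.71% to 11.6% in pericytes and 2.75% to 4.74% in SMCs, lower in every SMC library. Col1a1, Col1a2 and Col3a1 together made up 41.8% to 64.96% of collagen FPKM in pericytes and 70.6% to 71.6% in SMCs, a range of about 1 percentage point over SMC libraries whose total differed by over 2 times.

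**Figure D5:**
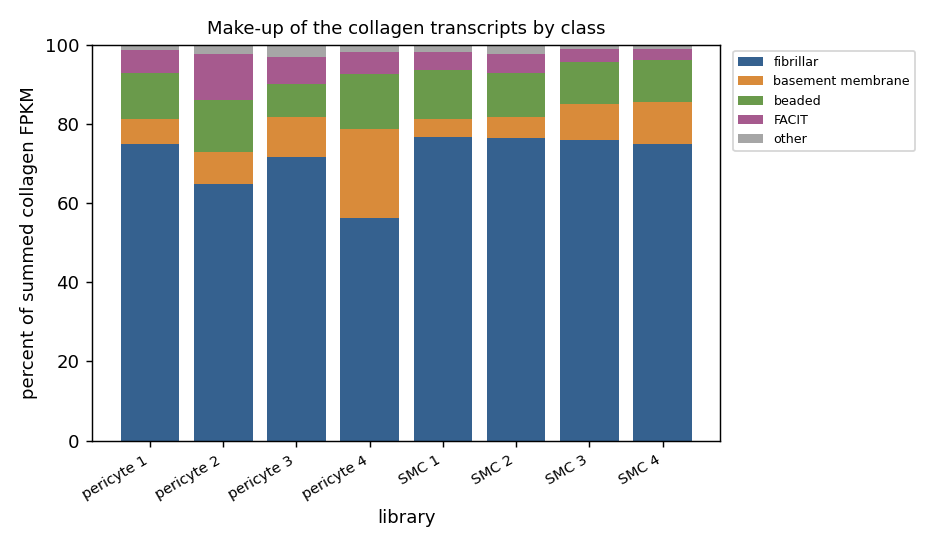
Percent of the summed collagen FPKM taken by each class in each of 4 pericyte and 4 SMC libraries, stacked to 100. The fibrillar share is 74.8% to 76.6% in the 4 SMC libraries, while their basement membrane share runs from 4.52% to 10.7%, and pericyte replicate 4 has 22.6% in basement membrane genes.

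The order of levels was similar in both groups at the top. Col3a1, Col1a1 and Col1a2 were the first 3 collagens in SMCs, at 1159 ± 523, 1071 ± 606 and 986 ± 472 FPKM, and these means did not differ beyond their spread. They were also the first 3 in pericytes, at 96.4 ± 28.7, 95.5 ± 53.9 and 107 ± 44.9 FPKM, again within their spread. Col6a1 and Col4a1 followed in SMCs, at 289 ± 138 and 198 ± 156 FPKM. In pericytes Col2a1 (44.9 ± 38.8 FPKM), Col6a1 (36.1 ± 11.0 FPKM) and Col4a1 (35.4 ± 25.1 FPKM) came next and overlapped, and Col2a1 was above Col6a1 in replicate 3 alone.

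Genes that modify, fold, cut and bind collagen were taken from 4 lists with 39 genes, of which 38 were found and 37 had a value above 0. Of these, 25 were higher in SMCs by limma, where 11.2% of all genes tested were, 1 was higher in pericytes, where 10.6% were, and 11 did not pass, and the median log2 difference was 1.44. Among prolyl and lysyl hydroxylases and their partners, 10 of 15 were higher in SMCs and 6 were SMC-enriched, among them Crtap, a part of the prolyl 3-hydroxylase complex (17.6 ± 10.1 FPKM in pericytes and 109 ± 69.5 FPKM in SMCs, SD, n = 4, limma q = 0.0193). The Crtap call was lost when replicate number was added to the fit as a block (limma q = 0.0761). The others that were enriched were Glt25d2, which adds galactose to hydroxylysine (limma q = 0.000452), P4ha2, a prolyl 4-hydroxylase subunit (limma q = 0.00103), Plod2 (limma q = 0.00234) and Plod1 (limma q = 0.0140), both lysyl hydroxylases, and Leprel4, a partner of the lysyl hydroxylases (limma q = 0.00408). The general folding enzymes P4hb and Ppib did not pass, at 295 ± 36.1 and 225 ± 117 FPKM in pericytes and 483 ± 129 and 324 ± 88.5 FPKM in SMCs.

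Of the procollagen chaperones and export genes, 4 of 6 were higher in SMCs. Serpinh1, the collagen-specific chaperone HSP47, had 55.5, 59.1, 29.4 and 45.7 FPKM in pericytes and 435, 325, 297 and 304 FPKM in SMCs. The groups lay far apart, with a log2 difference of 2.85 (standard error 0.24, limma q = 0.000239). Its order within SMCs, with replicate 1 on top, was not that of the type I chains. Fkbp10 (log2 difference 2.08, limma q = 0.00123) and Fkbp14 (log2 difference 2.85, limma q = 0.0154), both prolyl isomerases of the endoplasmic reticulum, were SMC-enriched as well. Among the propeptide-cutting enzymes and their enhancers, 6 of 8 were higher in SMCs. Pcolce, which speeds removal of the C-terminal propeptide, had 89.8, 70.4, 25.0 and 27.5 FPKM in pericytes and 718, 450, 453 and 356 FPKM in SMCs, a log2 difference of 3.35 (limma q = 0.00215). Pcolce2 was also SMC-enriched (log2 difference 3.08, limma q = 0.00319), and Adamts2 and Adamts3, which remove N-terminal propeptides, were higher in SMCs with log2 differences of 1.94 and 1.54 (limma q = 0.000755 and 0.00206).

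Collagen receptors included the only pathway gene that was higher in pericytes. Lair1, an inhibitory collagen receptor of leukocytes, had 20.8, 28.7, 28.3 and 40.1 FPKM in pericytes and 5.17, 5.24, 5.58 and 7.36 FPKM in SMCs, a log2 difference of -2.13 (standard error 0.20, limma q = 0.000383). Of the 10 leukocyte markers given above, 9 were also higher in pericytes. Their sum in pericyte replicates 1 to 4 was 2748, 3580, 2346 and 2104 FPKM, an order other than that of Lair1. The part of these markers in the Lair1 values was not tested. Ddr2, a tyrosine kinase receptor for fibrillar collagen, had 4.82, 2.68, 2.43 and 5.71 FPKM in pericytes and 21.1, 21.99, 24.3 and 33.8 FPKM in SMCs, a log2 difference of 2.46 (limma q = 0.000689). Itga11, an integrin chain for type I collagen (log2 difference 2.45, limma q = 0.00705), and Mrc2, which takes up collagen fragments (log2 difference 2.31, limma q = 0.0148), were SMC-enriched too. In all, 5 of 8 receptors with a value above 0 were higher in SMCs, and Gp6, the platelet receptor, was listed at 0 in all 8 libraries.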

How the data were processed

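Pericytes and SMCs were compared in 4 libraries each, grouped by the sample names and cell type labels. Nothing in the labels says which animals a library came from, and several sorts were pooled per library, so p-values measure the spread between these libraries. The authors checked reads with FastQC, aligned them with Bowtie2 and TopHat on NCBI Build 37, using an Ensembl annotation, and deposited FPKM values, which are not on a log scale. The FPKM program and the use of strand are not given in the sources used here. Exons of 9 members overlap another gene in GENCODE version 1 (at most 6.07% of the member's exon length, Col9a3).

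Values were log-transformed after adding 1, and limma 3.58.1 under R 4.3.3 was fitted (lmFit, eBayes), with Benjamini-Hochberg adjustment over the 27414 genes above 0 in at least 1 library. Thresholds were a q value of 0.05 and, for enrichment, a log2 difference of 2. On simulated data for this comparison (27414 genes), 70 of 100 genes changed by 2 log2 units and 98 of 100 changed by 4 were found, beside 10 of 27214 unchanged genes. The changed genes were drawn only from those with a mean log2(FPKM + 1) above 2, and noise was drawn for each gene on its own. In the data 3060 genes were higher in SMCs and 2917 in pericytes, far more than were changed in the simulation. These rates therefore need not hold for the data or for members of low level. The same result was computed with a pseudocount of 0.1, with only genes at 1 FPKM or more in 4 libraries, with every gene, with TPM, quantile or median-of-ratios scaling, with an intensity trend, with the replicate block, and with each library left out. Leaving libraries out of the class sums was added after seeing the data.

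Members with a mean of at least 5 FPKM in either group or called enriched are named in full, as are pathway genes called enriched or among the 3 smallest q values of their list. Other genes, among them Acta2, Myh11, Pdgfrb, Rgs5, Vtn, Pdgfra, Dcn, Gsn, Pecam1, Ptprc, Acan, Sox9, Matn3, Scx, Tnmd, Mkx, Comp, Fmod, P4hb and Ppib, and collagens below that level, were named after their values were seen. Older symbols were used where the file has them (Glt25d2 is now Colgalt2, Leprel4 is now P3h4). Mia3 was not matched. The members and lists were chosen with earlier results of these data known. Markers of Schwann cells (0 of 6 passed) and skeletal muscle fibres (0 of 6) were also tested, where 11.2% of all genes were higher in SMCs and 10.6% in pericytes. Gene positions came from GENCODE version 1 and promoters from RefSeq (GRCm38.p6). Figures were made in Python 3.11.15 with pandas 2.3.3 and matplotlib 3.10.9.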

Additional observations from a re-analysis of the deposited data

Results flagged for a closer look

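Each of the 86 groups of 4 libraries (43 genes in 2 groups) was checked for a library that stood apart. The rule was a gap to the next library that took more of the range of log2(FPKM + 1) than Dixon's 95% critical value allows. Chance gives this in about 1 in 20 groups. The 3 found were no more than that rate would give over 86 groups. Pericyte replicate 3 stood apart for Col10a1, at 7.25 FPKM against 0.101 to 0.225 FPKM in the other pericyte libraries. Pericyte replicate 4 stood apart for Col4a5, at 2.60 FPKM against 0.712 to 0.873 FPKM, and for Col4a6, at 0.835 FPKM against 0.129 to 0.224 FPKM. The same library was the highest pericyte library for Col4a1, Col4a2 and Col18a1.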

How the results depend on the processing

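Of the 20 collagens higher in SMCs by limma, 18 passed under all 16 alternatives, and the exceptions were Col11a2 and Col4a3. The count of collagens higher in SMCs was 19 to 27 over the alternatives (19 to 22 with each library left out), and the count of SMC-enriched collagens was 15 to 23 apart from 13 without SMC replicate 3. No collagen was higher in pericytes except 2 (Col9a1 and Col9a3) when only genes with 1 FPKM or more in 4 libraries were tested, the same 2 with the replicate block, and 0 to 1 with each library left out, the 1 being Col9a3 without SMC replicate 3. No alternative gave a pericyte-enriched collagen, and no gene that passed changed direction. The pathway count of 25 was 19 to 29, and 17 of the 26 pathway genes that passed did so throughout. Some enriched pathway genes fell short of the log2 threshold of 2 in an alternative. Their lowest differences were 1.87 for Plod1, 1.92 for Plod2, 1.94 for Fkbp10, 1.992 for Glt25d2, 1.993 for Mrc2 and 1.997 for Leprel4. The Lair1 difference was -1.95 at its smallest. The log2 difference of the class sums, SMC minus pericyte, moved by less than 1 SD of the log2 sums (pooled over both groups) under TPM and median-of-ratios scaling and without each library.

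Libraries share replicate numbers, but the labels do not tie same-numbered libraries to shared animals. Their deviations from the group means correlated across 13612 genes at 0.327 on average, and at 0.0794 in the lowest of 4 pairs, so they were not taken as paired. Of the libraries, 2 of 4 pericyte and 3 of 4 SMC libraries correlated best with their own number. With the replicate block, 27 collagens were higher in SMCs, 21 were SMC-enriched and 2 were higher in pericytes, and 22 pathway genes were higher in SMCs. In that fit the basement membrane class had 6 genes higher in SMCs, with limma q values of 0.0153 for Col4a1, 0.0116 for Col4a2, 0.0414 for Col4a5 and 0.0073 for Col18a1, and Crtap had a limma q of 0.0761. The depth of the libraries is unknown, so members under 1 FPKM have no stated counting error.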
